A study of Mus musculus with 2 samples.

Results

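The clustered histone genes code for the replication-dependent histones and lie in a few tight groups. They were taken as all protein-coding genes of GENCODE M21, on the mouse assembly mm10, whose symbols begin with Hist1h, Hist2h, Hist3h or Hist4h. This gave 67 of 21853 protein-coding genes. The Hist1 cluster on chromosome 13 holds 54, Hist2 on chromosome 3 holds 10, Hist3 on chromosome 11 holds 2 and Hist4 on chromosome 6 holds 1. By product they code for 6 linker histones (H1) and for 18 H2A, 18 H2B, 12 H3 and 13 H4 core histones. Their chromatin was profiled by ATAC-seq, in which the transposase Tn5 cuts DNA that nucleosomes leave free. The cells were primary monocytes of peripheral blood, taken from adult C57BL/6J mice aged 5 to 6 weeks. There was 1 group of 2 biological replicates with 50000 cells each, and no control. Both replicates carry the same donor identifier, so their spread may be purely technical.

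Replication-dependent histone genes are transcribed mainly in S phase, when new DNA has to be packed into nucleosomes. The coactivator NPAT drives them at nuclear bodies next to the clusters, and their mRNAs end in a stem-loop that SLBP binds in place of a poly(A) tail. Histones H2A, H2B, H3 and H4 form the nucleosome core, and H1 binds the linker DNA between cores. Blood monocytes have mostly left the cell cycle, while some members, among them Hist1h1t, Hist1h2ba and Hist1h2aa, are known for expression in male germ cells of the mouse.

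The values were the authors' peaks, each with a fold enrichment over background, a linear ratio. Without read counts the depth of the libraries is unknown, and no interval that needs a count can be given. Overlapping peaks of the authors' conservative set, made from both replicates, were merged into regions, and the highest fold in that set is called the pooled fold. Replicate folds are from each replicate's own pseudoreplicated set, a looser list than its thresholded one. Among markers of the labelled cell type, 7 of 8 monocyte genes had an open promoter (Ccr2 had none). Of other blood cells, 1 of 5 T cell, 2 of 5 B cell, 1 of 4 erythroid, 0 of 3 NK cell, 0 of 4 neutrophil and 0 of 3 platelet genes did. In the looser pseudoreplicated sets of both replicates, 1 gene of each of the last 3 types was open, namely Ncr1 (7.15 and 4.23), S100a8 (3.08 and 3.43) and Itga2b (3.49 and 2.64). Cd3d, a chain of the T cell receptor complex, had folds of 11.7 and 11.2 in replicates 1 and 2, while Cd3e, Cd3g, Lck and Bcl11b had no region. The B cell genes were Pax5 (4.81 and 5.44) and Cd79b (3.54 in replicate 2 alone). The erythroid gene was Klf1, which had no region in the pseudoreplicated set of either replicate. The part of other cells in the histone results was not tested.

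Nearly every clustered histone gene was open. The transcription start site (TSS) of 63 of 67 members (94%) had a region within 1 kb, against 46.6% of all protein-coding genes. The 4 without one were Hist1h1d and Hist1h1t, which code for linker histones, and the divergent germ-cell genes Hist1h2ba and Hist1h2aa. In the pseudoreplicated sets of both replicates, 62 members (92.5%) had such a region, against 48.6% of all genes. Hist1h3i is the further gene left out there, as it had no region in replicate 1. Distal regions, farther than 1 kb from every TSS and assigned to the nearest within 100 kb, were present at 13 of 67 members (19.4%), against 33.6% of all genes. Since neighbouring members share regions and promoter windows, they are not independent, and these shares were not tested.

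Because neighbours lie so close, a region within 1 kb can belong to another gene. Each member was therefore also searched for a region that covers its start codon or ends within 250 bp of it, called its start region. This rule was chosen after the data had been seen. A start region was found for 62 of 67 members, at 51 distinct places, and for 6118 of 21591 genes with an annotated start codon (28.3%). Coding sequence begins close to the TSS in most histone genes, so the share of all genes is not a like comparison. Within 250 bp of a TSS or a start codon, 62 members (92.5%) had a region, against 44.8% of all genes.

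The start regions lay just upstream of the coding sequence. Their summit was upstream of the start codon in 62 of 62 members, with a median of -116.5 bp and a range of -322 to -43 bp. The region reached past the start codon in 58 of the 62, and its downstream edge had a median of 58 bp. Taking the strongest region within 1 kb, median width was 395 bp over 63 members (quartiles 328.5 and 569.5 bp), against 680 bp over 10174 open protein-coding genes (quartiles 499 and 895 bp). The pooled fold of these regions had a median of 7.53 in members (quartiles 6.59 and 8.89) and of 8.34 in all open genes (quartiles 6.43 and 10.5). Start regions had their lowest median width in Hist1, at 373 bp (209 to 666 bp, 49 members). In Hist2 the median was 695 bp (281 to 1064 bp) over 10 members. In Hist3 it was 694 bp (599 to 789 bp) over 2, and Hist4h4 had 1084 bp. The ranges of Hist1, Hist2 and Hist3 overlapped, and a region shared by 2 genes counts for both. Start regions are not chosen as the strongest within 1 kb, so these widths are not a like comparison with all open genes. Much of the coding sequence beside the start codons is repeated elsewhere in the genome, where reads cannot be placed with certainty. Its part in the widths of members was not tested.

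**Figure D1:**
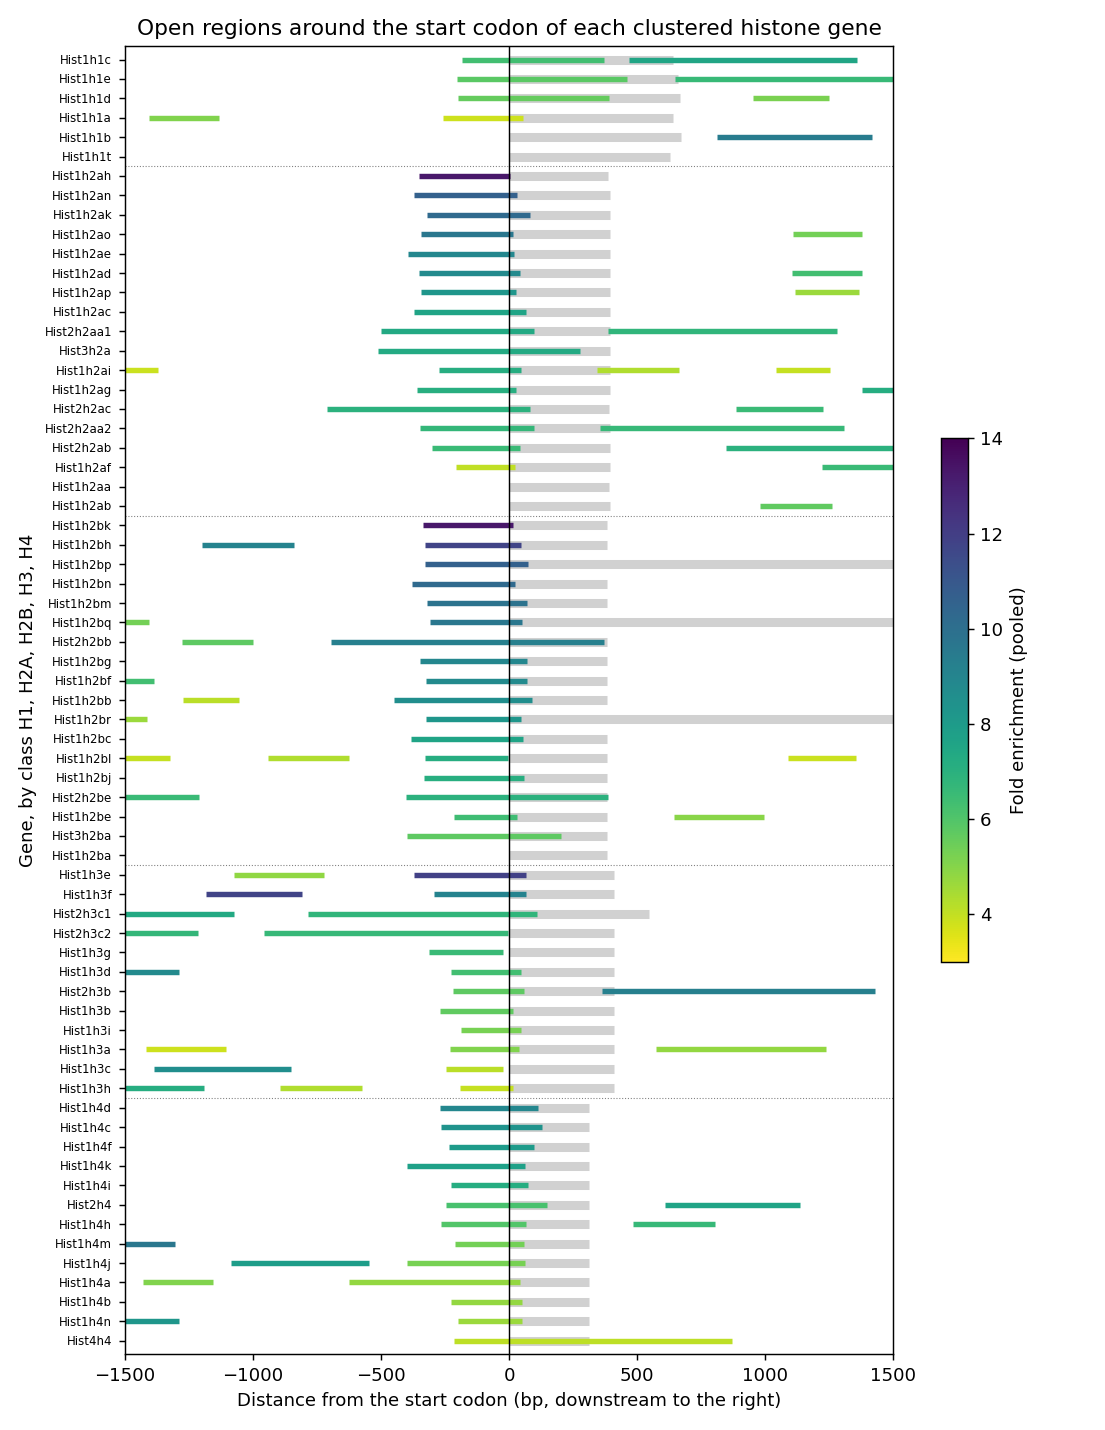
Regions of the conservative set around the start codon of each of the 67 members, with distance from the start codon in bp on the horizontal axis, genes down the page by class and pooled fold as colour. Grey bars span start codon to stop codon, introns included; the coloured bar at 0 is the start region, present in 62 members and with its summit upstream in 62 of 62.

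The replicates gave close values. At the 59 members whose start region was found in both, the median fold was 7.35 in replicate 1 and 6.73 in replicate 2. The log2 difference, replicate 2 minus replicate 1, ran from -0.44 to 0.44 around a median of -0.08 (SD 0.21). For the strongest promoter region the medians were 7.43 and 7.09 over 62 members, against 7.66 and 7.63 over 10627 protein-coding genes. In the stricter thresholded sets of the replicates, 54 members had a start region in replicate 1, 54 in replicate 2 and 49 in both. These sets hold 17604 and 18057 regions in replicates 1 and 2, against 39579 and 39886 in the pseudoreplicated sets. No share of all genes is given for them, so whether members drop out more than other genes is not known. All 3 members not found in both pseudoreplicated sets code for H3. Hist1h3h (fold 3.56) and Hist1h3i (fold 5.25) were found in replicate 2, while Hist1h3c was found in neither, though the conservative set holds it with a pooled fold of 4.13.

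Sequence before the transcription start is shown for 6 members that mark the ends of the range. The lines hold bases before the RefSeq start on GRCm38.p6 (the assembly of mm10), 5′ to 3′ on the gene's strand. Hist1h2bk carried the highest pooled fold and shares its region with Hist1h2ah, so its line stops at the RefSeq start of that gene (chr13:22035644-22035820, plus strand). Hist1h3e led the H3 genes (chr13:23562386-23562635, minus strand), Hist1h4d led the H4 genes (chr13:23581318-23581567, plus strand), and Hist1h1a was the weakest H1 gene with a start region (chr13:23763418-23763667, plus strand). Hist1h1t (chr13:23695561-23695810, plus strand) and Hist1h2aa (chr13:23934237-23934436, plus strand) had no region. Capitals mark, on either strand, CCAAT (the box bound by NF-Y), TATAAA (known as the TATA box), ATTTGCAT (the octamer bound by OCT1), GGTCCG (core of the H4 gene element called site II) and AAACACA (the H1 box).
Hist1h2bk: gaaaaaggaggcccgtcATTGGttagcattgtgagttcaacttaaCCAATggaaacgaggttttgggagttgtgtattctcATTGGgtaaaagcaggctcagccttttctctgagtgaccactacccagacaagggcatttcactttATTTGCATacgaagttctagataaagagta
Hist1h3e: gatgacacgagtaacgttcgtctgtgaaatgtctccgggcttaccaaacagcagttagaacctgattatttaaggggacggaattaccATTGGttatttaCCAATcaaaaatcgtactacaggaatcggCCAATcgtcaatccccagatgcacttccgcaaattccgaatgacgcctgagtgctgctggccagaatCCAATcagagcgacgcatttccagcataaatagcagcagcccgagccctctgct
Hist1h4d: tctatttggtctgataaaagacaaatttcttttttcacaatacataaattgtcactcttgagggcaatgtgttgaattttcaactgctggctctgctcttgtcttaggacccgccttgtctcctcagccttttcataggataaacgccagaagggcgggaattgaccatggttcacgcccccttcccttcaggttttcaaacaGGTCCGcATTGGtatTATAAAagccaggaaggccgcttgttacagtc
Hist1h1a: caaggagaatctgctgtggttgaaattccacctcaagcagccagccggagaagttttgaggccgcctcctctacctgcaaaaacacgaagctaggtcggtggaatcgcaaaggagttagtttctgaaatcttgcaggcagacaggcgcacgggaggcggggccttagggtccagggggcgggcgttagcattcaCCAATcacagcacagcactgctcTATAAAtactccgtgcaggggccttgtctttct
Hist1h1t: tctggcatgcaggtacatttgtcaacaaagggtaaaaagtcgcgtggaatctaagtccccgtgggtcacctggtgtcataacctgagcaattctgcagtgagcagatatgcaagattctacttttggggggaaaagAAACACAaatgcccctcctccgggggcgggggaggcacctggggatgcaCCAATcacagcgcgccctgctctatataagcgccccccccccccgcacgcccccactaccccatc
Hist1h2aa: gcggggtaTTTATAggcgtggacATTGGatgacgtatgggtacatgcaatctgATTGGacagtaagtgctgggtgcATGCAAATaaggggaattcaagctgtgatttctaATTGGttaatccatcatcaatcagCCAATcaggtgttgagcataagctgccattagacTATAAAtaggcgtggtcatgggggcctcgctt

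The H2A and H2B genes had the highest class medians of fold. The median of the replicate means was 8.33 for H2B (17 start regions among 18 genes) and 7.46 for H2A (16 of 18), against 6.35 for H3 (9 with values in both replicates), 5.68 for H1 (4 of 6) and 5.67 for H4 (13 of 13). Ranges overlapped throughout, from 5.35 to 12.0 in H2B, 3.88 to 12.0 in H2A, 4.87 to 11.0 in H3, 3.81 to 5.96 in H1 and 4.15 to 8.22 in H4. In 11 cases an H2A and an H2B gene share 1 region, whose fold counts in both class medians. Each class median stands on genes of the same libraries, so class differences were not tested.

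**Figure D2:**
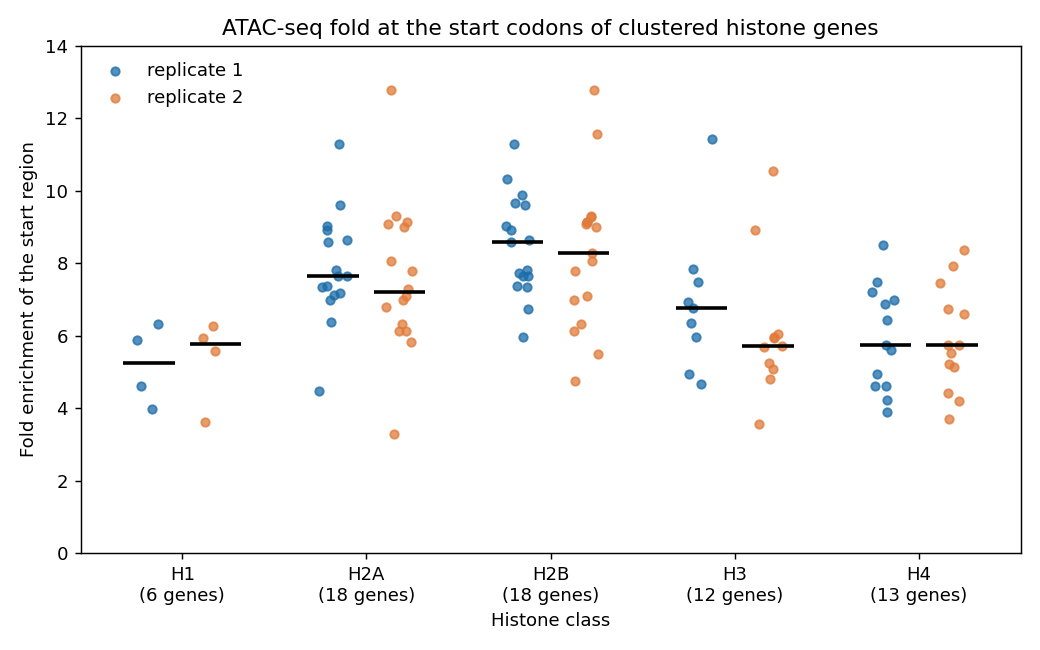
Fold enrichment of the start region (vertical axis) for each member by histone class, replicate 1 at the left and replicate 2 at the right of each class, with a black line at the median. A paired H2A and H2B gene show the same region, so the region of Hist1h2ah and Hist1h2bk, at 11.3 and 12.8 in replicates 1 and 2, appears in both classes.

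Many H2A and H2B genes sit head to head, transcribed away from each other from 1 short intergenic stretch. A pair was defined as 2 neighbouring members on opposite strands, pointing apart, with start codons at most 1 kb apart. This gave 12 pairs, each of 1 H2A and 1 H2B gene, with start codons 278 to 334 bp apart (median 299 bp). In 11 pairs a single region was the start region of both genes, with its summit at most 66 bp from the middle of the gap. It took in the space between the start codons, but at Hist1h2bl with Hist1h2ai it stopped 5 bp short of the Hist1h2bl start codon. The remaining pair, Hist1h2ba with Hist1h2aa, had no region in the conservative set or in either replicate. The regions of the 11 pairs had pooled folds of 6.98 to 13.3 (median 8.78) and a median width of 395 bp. Single start regions of the other 40 members had a median pooled fold of 6.32. The pair with the highest fold, Hist1h2ah and Hist1h2bk (chr13:22035550-22035903), had 11.3 in replicate 1 and 12.8 in replicate 2, a mean of 12.0 ± 1.06 (SD, n = 2). That region is 354 bp wide and covers the printed 177 bases, in which 3 CCAAT boxes and 1 octamer lie. Next by pooled fold came Hist1h2an with Hist1h2bp, at 8.64 and 9.08 in replicates 1 and 2 (pooled 10.6), and Hist1h2ak with Hist1h2bn, at 9.62 and 9.31 (pooled 10.2). Hist1h2bq with Hist1h2ao had 9.03 and 8.99, but the bases around its start codons are repeated elsewhere in the genome, so its value is uncertain. The lowest pooled fold of a pair was at Hist2h2ac and Hist2h2be, with 7.35 and 6.31. A shared region gives 1 value for 2 genes, and what each promoter adds to it cannot be told apart.

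High folds were also seen at H2B genes outside these pairs. Hist1h2bh had 10.3 and 11.6 in replicates 1 and 2, Hist2h2bb had 9.89 and 9.15, and Hist1h2bm had 9.68 and 9.28. Hist1h2bh points away from its neighbour Hist1h3f, but their start codons lie more than 1 kb apart and each has its own start region. The region of Hist1h2bm also covers the start of the pseudogene Hist1h2aj, which lies on the opposite strand. The 11 unpaired H2A and H2B genes with a start region had a median mean fold of 6.59, against 8.33 for the 22 paired genes. Those 22 genes hold 11 regions, each counted for both its genes. The weakest H2A gene was Hist1h2af, unpaired, with 4.47 and 3.30. The weakest H2B gene was Hist3h2ba, at 5.96 and 4.75. Hist1h2ab, another unpaired H2A gene, had no start region, and its open promoter under the 1 kb rule is the region of its neighbour Hist1h3b.

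Among H3 genes, which code for the core histone whose tail carries many regulatory marks, Hist1h3e had the highest fold. It had 11.4 in replicate 1 and 10.6 in replicate 2, a mean of 11.0 ± 0.614 (SD, n = 2). Next came Hist1h3f at 7.84 and 8.93, and the others with values in both replicates had 7.49 or less in each. The printed stretch of Hist1h3e holds 4 CCAAT boxes. Hist1h3a was the lowest of those found in both, with 4.68 and 5.07. The H3 start regions were also the narrowest class, with a median of 282 bp.

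Every H4 gene had a start region in the pseudoreplicated sets of both replicates. In the stricter thresholded sets, which hold fewer regions, 9 of 13 had one in replicate 1, 11 in replicate 2 and 7 in both. The share of all genes in those sets is not given. Hist1h4d had 8.51 and 7.93 in replicates 1 and 2, Hist1h4c 7.21 and 8.37, and Hist1h4f 6.97 and 7.46. At the low end, Hist1h4b had 3.89 and 5.13. Hist4h4, alone on chromosome 6, had 4.60 and 3.71 over the widest start region, 1084 bp. The H4 summits lay nearer to the start codon, at a median of -75 bp, than those of H2A (-150.5 bp) or H2B (-141 bp). The last 2 medians follow in part from the pairs, whose shared summit lies near the middle of the gap.

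The linker histone genes were mixed, and 4 of 6 had a start region. Hist1h1c had 6.33 and 5.59 in replicates 1 and 2, Hist1h1e 4.63 and 6.27, and Hist1h1a 3.98 and 3.63. Hist1h1d had 5.88 and 5.94 at its start codon (chr13:23554890-23555482). It counts as not open under the 1 kb rule only because its annotated TSS lies 1828 bp upstream of the start codon. Hist1h1t, the testis linker histone gene, had no region within 1 kb. Hist1h1b had no start region either, although it counts as open under the 1 kb rule through a region past its 3′ end (chr13:21779136-21779742).

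Regions with a summit past the stop codon were seen at 8 of 67 members, 4 of them among the 6 H1 genes. An end region was defined, after the data had been seen, as one that is no start region, begins within 500 bp of the end of the coding sequence and has its summit within 2 kb past the stop codon. With start regions of all protein-coding genes left out in the same way, 8 of 67 members (11.9%) and 264 of 21513 genes with annotated start and stop codons (1.23%) had one. Histone genes lie close together, so this is not a like comparison, and it was not tested. The end region of Hist1h1b had folds of 9.85 and 8.14 in replicates 1 and 2, with its summit 414 bp past the stop codon. At Hist1h1c the folds were 6.99 and 7.44, at Hist1h1e 6.64 and 6.74, and at Hist1h1d 5.35 and 4.50, with summits 244, 143 and 455 bp past the stop codon. At Hist1h1c and Hist1h1e the end region was stronger than the start region in both replicates, while at Hist1h1d it was weaker in both. The other 4 members were Hist2h4 (7.29 and 7.23), Hist1h4h (5.83 and 6.43), Hist1h2be (4.96 and 4.45) and Hist1h2ai (3.66 and 4.29). Only regions near start codons were left out, so an end region can lie at an annotated TSS of a neighbour. The end region of Hist1h1e covers an annotated TSS of Hist1h2be and is the region the 1 kb rule scored for Hist1h2be. That of Hist1h2ai is the strongest region within 1 kb of the TSS of Hist1h3h. The end regions of Hist1h1c, Hist1h1e and Hist1h2ai begin before the stop codon. At Hist1h1c the start region ends 369 bp past the start codon, and the end region begins 470 bp past it. Reads from repeated coding sequence cannot be placed with certainty. Whether such a start and end region are 1 broken region was not tested. Any regulatory role of the end regions was not measured.

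Hist1h2be shows the same effect of annotation as Hist1h1d. The nearer of its 2 annotated TSSs lies 35138 bp upstream of its start codon, near Hist1h1e, so the 1 kb rule scored it there. Its own start region (chr13:23585925-23586170), with 6.74 and 5.50 in replicates 1 and 2, was assigned by distance to Hist1h4d as a distal region. In 11 members the strongest region within 1 kb was not the start region.

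The 13 members outside Hist1 all had a start region, with a median mean fold of 6.55, against 7.46 in Hist1. A shared region counts for both its genes in these medians. In Hist1, 20 of the 49 members with a start region share one, against 2 of the 13 outside, so the medians are not a like comparison. Start regions outside Hist1 had a median width of 789 bp (281 to 1084 bp), against 373 bp (209 to 666 bp) in Hist1. Hist4h4 had one of the lowest folds. In Hist2, the copies Hist2h2aa1 and Hist2h2aa2 had 7.11 and 7.30, and 6.98 and 6.12, in replicates 1 and 2. Hist2h2ab had 7.17 and 5.83. The H3 copies Hist2h3c1 and Hist2h3c2 had 7.49 and 5.71, and 6.93 and 6.05, while Hist2h3b had 4.95 and 5.95. Hist2h4 had 5.59 and 5.75 at its start codon. In Hist3, Hist3h2a had 6.37 and 6.80.

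Along the chromosomes, members with start codons under 100 kb apart formed 7 groups. All 10 Hist2 members in 50268 bp of chromosome 3 had a start region, and so did both Hist3 members and Hist4h4. The Hist1 members fell into 4 groups, of 18, 5, 29 and 2 genes. Start regions were found for 17 of 18 members from Hist1h2bl to Hist1h2br, 5 of 5 from Hist1h2ah to Hist1h2bj, 27 of 29 from Hist1h4h to Hist1h1a, and 0 of 2 at Hist1h2ba and Hist1h2aa. The median mean fold of the first 3 was 7.71, 7.19 and 6.79, and that of the Hist2 group was 6.58, with a shared region counted for each gene. In the 29-gene group the last 5 members, Hist1h3b, Hist1h4b, Hist1h4a, Hist1h3a and Hist1h1a, had mean folds of 5.39, 4.51, 4.57, 4.87 and 3.81. Its highest mean folds, 11.0 at Hist1h3e and 11.0 at Hist1h2bh, lay nearer the other end.

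The Hist1 span (chr13:21715763-23934851) also holds genes that are not histone genes. There, 50 of 54 members had an open promoter under the 1 kb rule, against 4 of 49 other protein-coding genes. Those 4 were Abt1, Hfe (a regulator of iron uptake), Zfp184 and Zfp322a. Of the other 49, 36 are vomeronasal or olfactory receptor genes, and 0 of these was open.

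**Figure D3:**
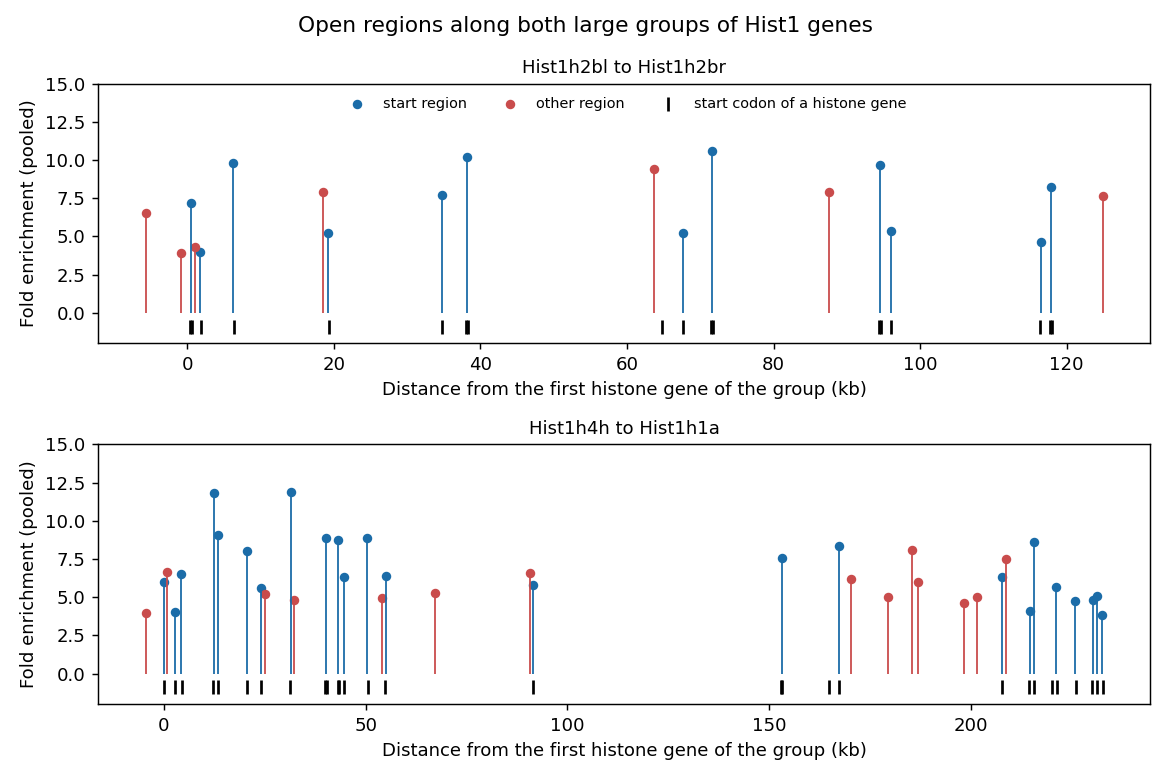
Pooled fold (vertical axis) of each region along the 18-gene group (upper) and the 29-gene group (lower) of Hist1 genes, by distance in kb from the first member. Blue points are start regions, red points other regions, and black ticks start codons; some ticks have no blue point above them, as at Hist1h1b, Hist1h1t and Hist1h2ab.

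Distal regions assigned to members numbered 18, of which 2 were the start regions of Hist1h1d and Hist1h2be and 2 their end regions. The farthest lay 16411 bp from a TSS. Their median pooled fold was 5.89, against 6.03 for all 16278 assigned distal regions. Of the 18, 14 were found in both replicates, and the share for all distal regions is not given. The strongest lay 7805 bp from Hist2h2bb (chr3:96277557-96278649), with 9.90 and 7.23 in replicates 1 and 2. The regions 6765 bp from Hist1h2bq and 6763 bp from Hist1h2br lie at matching places beside near-identical copies, and had 7.46 and 7.07, and 7.09 and 7.51. Whether reads can be placed at these 2 regions was not checked, so their values are uncertain. Others were near Hist2h3c1 (8.34 and 5.59), Hist2h2be (4.45 and 4.51) and Hist1h4c (6.30 and 5.55). A pair near Hist1h1c was found in replicate 1 alone (4.74 and 4.51). Transfer RNA genes lie in and around the Hist1 cluster, and 4 of the 18 regions (22.2%) were within 500 bp of one, against 87 of 16278 (0.534%). These were near Hist1h2bl (6.66 and 5.70), Hist1h2ah (7.55 and 7.97), Hist1h2bj (7.88 and 7.32) and Hist1h4h (4.14 in replicate 2 alone).

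Members shared base composition and promoter motifs that the choice by name did not use. The CpG ratio, observed over expected CG within 500 bp of the gene start, had a median of 0.879 in members and 0.552 in all protein-coding genes. All genes were ranked by this ratio and parted into 5 equal classes. In the richest class 51 of 51 members were open, against 78.7% of other genes. In the next class 9 of 10 members were open, against 73.0%, and in the middle class 3 of 5, against 50.1%. The poorest class held 1 member, Hist1h1d, which was not open, against 9.41% of other genes open. For Hist1h1d, and for Hist1h2be in the middle class, the annotated gene start lies far from the start codon. Their ratio and openness therefore describe another place. The CpG ratio thus moved with openness among all genes. Its part in the members' share was not tested beyond these classes.

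**Figure D4:**
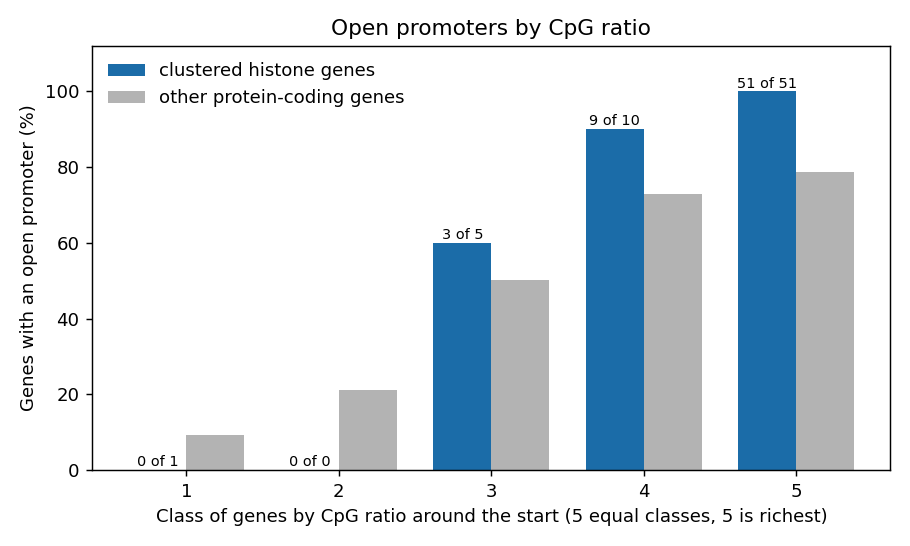
Share of genes with an open promoter (vertical axis, %) in 5 equal classes of protein-coding genes by CpG ratio, for clustered histone genes (blue, with their counts) and other protein-coding genes (grey). In the richest class 51 of 51 members were open, against 78.7% of other genes.

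Promoter sequence was available from RefSeq for 62 of the 67 members; Hist2h2be, Hist2h4, Hist1h3f, Hist1h2bc and Hist1h3a had no match. In the 250 bases before the RefSeq start, the CCAAT box was held by 51 of 62 members (82.3%), against 33.8% of 32851 promoters of all genes. It was in 6 of 6 H1, 18 of 18 H2A, 16 of 16 H2B and 8 of 10 H3 genes, but in 3 of 12 H4 genes. TATAAA was held by 29 of 62 members (46.8%), against 12.4% of all promoters. The octamer was in 7 of 18 H2A and 7 of 16 H2B genes and in 0 of 28 others, against 1.60% of all promoters. Windows of paired genes overlap, so an H2A gene and its H2B partner can share 1 match. GGTCCG was in 9 of 12 H4 genes and 2 of 50 others, and AAACACA in 5 of 6 H1 genes and 4 of 56 others, against 6.72% and 6.25% of all promoters.

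Members without a start region were not without these motifs. The CCAAT box was in 5 of 5 of them, against 46 of 57 members with a start region. TATAAA was in 4 of 5, against 25 of 57, and the octamer in 3 of 5, against 11 of 57. AAACACA was in 5 of 5, against 4 of 57, and GGTCCG in 0 of 5, against 11 of 57. The 5 hold 2 H1, 2 H2A and 1 H2B gene and no H4 gene, so the classes are not matched. Within H2A, AAACACA was in 2 of 18 genes, Hist1h2ab and Hist1h2aa, both without a start region. Within H2B it was in 2 of 16, Hist1h2ba without a start region and Hist1h2bm with one. Hist1h2ba and Hist1h2aa are a head-to-head pair with overlapping windows, so they can share a match. The relation of motif and openness was not tested. The printed stretch of Hist1h2aa holds 7 matches, made up of 4 CCAAT boxes, 2 TATA boxes and 1 octamer (ATGCAAAT on this strand). That of the strongest pair, Hist1h2ah and Hist1h2bk, holds 4. Hist1h1t holds a CCAAT box and the H1 box, as 5 of the 6 H1 genes do. A match is a description of the letters and not evidence of a bound factor.

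**Figure D5:**
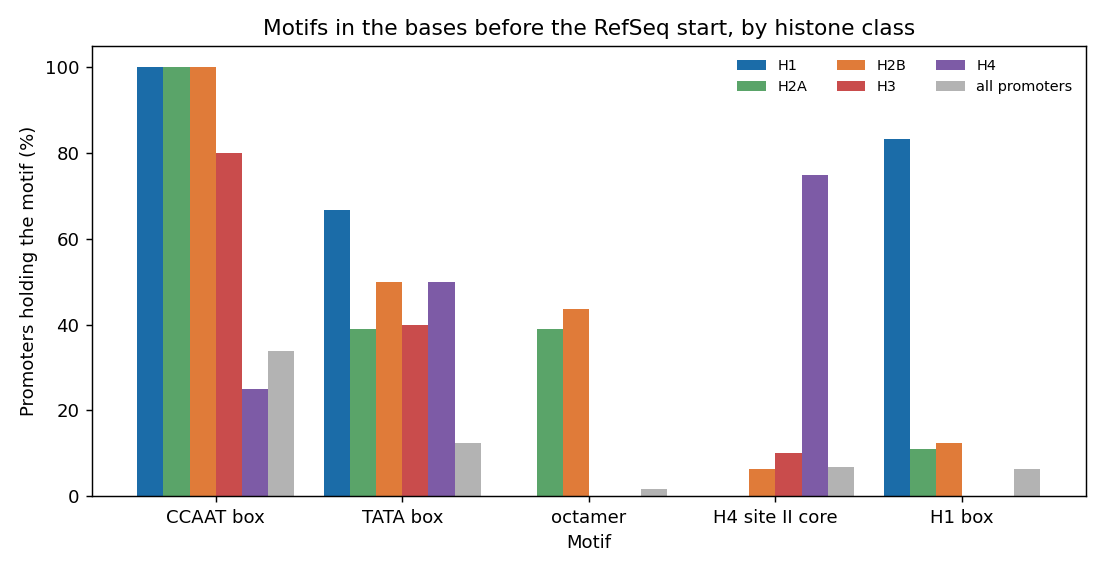
Share of promoters that hold each motif (vertical axis, %) in the 250 bases before the RefSeq start, by histone class and for all promoters (grey). CCAAT was in all H1, H2A and H2B promoters matched, the octamer in no H1, H3 or H4 promoter matched, and GGTCCG in 9 of 12 H4 promoters.

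Histone genes resemble each other, and reads from identical stretches cannot be placed with certainty. How the authors treated such reads and how long the reads were is not given in the sources used here. Each 50-base word within 250 bp of the start codon was therefore looked up in the genome. On the upstream side, 55 of 67 members had no repeated word. More than 50% of upstream words were repeated for 10 members: Hist1h2ao, Hist1h2ap, Hist1h2bq, Hist1h2br, Hist1h4m, Hist1h4n, Hist2h2aa1, Hist2h2aa2, Hist2h3c1 and Hist2h3c2. All 10 had a start region, but values of such copies are uncertain. Of the 57 other members, 53 were open within 1 kb and 52 had a start region. On the coding side the median share of repeated words was 67.7%. The downstream edge of the start region lay a median of 54 bp past the start codon for the 57 members with repeated coding words, and 369 bp (54 to 870 bp) for the 5 without. Of these 5, 4 lie outside Hist1. Start regions had a median width of 388 bp with repeated coding words and 791 bp without. Ranges overlapped, from 209 to 953 bp with and 314 to 1084 bp without, and cluster and repeat content cannot be told apart.

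Genes that act with the clustered histone genes were looked at through 3 lists. Of 15 replication-independent histone genes, which are expressed outside S phase as well, 8 were open (53.3%), with a median mean fold of 7.14. H2afv had 12.1 and 12.6 in replicates 1 and 2 and H2afx, the variant phosphorylated at DNA breaks, 11.3 and 10.8. Cenpa, the histone of centromeres, had 9.22 and 7.45. H1f0, H1fx, H1foo, H1fnt, H2afy2, H2afb1 and H2bfm had no promoter region in the conservative set. All 26 genes listed for histone gene expression were open, with a median of 7.73; the list also holds Ern1, which is known for the unfolded protein response. Lsm10, a subunit of the U7 particle that cuts histone pre-mRNA, had 14.5 and 13.9 in replicates 1 and 2. Npat had 10.7 and 10.9, Slbp 7.82 and 6.86, Hinfp, the factor for the H4 site II element, 13.8 and 11.9, and Casp8ap2 13.1 and 13.2. Of 25 S phase genes, 23 were open (92%), with a median of 9.88. Pcna, the replication clamp, had 13.8 and 13.0, Rrm1 12.3 and 12.3 and Mcm3 13.0 and 11.6, while Tyms and Tk1 had no region. The share of the first list was near the 46.6% of all protein-coding genes, and the shares of the other 2 lists were above it. Open chromatin was measured here and not transcription.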

How the data were processed

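ATAC-seq peak lists of 2 samples, 1 group, were used; assembly and replicate numbers are those of the labels. The authors deposited per-replicate and series-level lists, each peak with a fold enrichment (ratio), a −log10 p and a score. The sources used here do not name the aligner, the peak caller or a Tn5 shift, and depth is unknown. Peaks on chromosomes 1 to 19, X and Y that overlap were merged; a region takes its highest fold, and its summit from the peak of smallest p. A TSS is the start of a protein-coding transcript in GENCODE M21; sequence was GRCm38.p6 and, for promoters, RefSeq's table of that build. The region search was checked on simulated data. Members, lists and motifs were chosen with earlier results of these data known, and no hypothesis test was made. Named genes were, by class, the 3 highest and 2 lowest by mean fold, members lacking a region in the series or a replicate, germ-cell members, those outside Hist1 or with a distal region, and of each list the 3 highest and those without a region. Others were named after their values were seen. Alternatives were other peak sets, windows and distances, a fold of 5 or more, each replicate alone, and 2 chosen after seeing the data. Scripts ran in Python 3.11.15 with numpy 2.4.6; figures used pandas 2.3.3, then matplotlib 3.10.9.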

Additional observations from a re-analysis of the deposited data

How the results depend on the processing

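Across the peak sets, windows and rules tried, 53 to 64 members were open, with 63 in the main analysis; the lowest count leaves out the 10 members with repeated upstream words. In both replicates 51 to 64 were open, with 62 in the main analysis. The median promoter fold of 7.20 became 7.71 with peaks of fold 5 or more, and also 7.71 with the replicates' own thresholded sets, where weak regions drop out. It was 7.09 to 7.43 with 1 replicate left out. Leaving 1 out means here that the other replicate's pseudoreplicated set took the place of the conservative set. The replicate sets are looser, with 39579 and 39886 regions in replicates 1 and 2 against 28438. The effect of the replicate and that of the looser list cannot be told apart in such values. The median width of 395 bp was 374.5 to 394 bp with 1 replicate left out. The median summit position, -95 bp from the TSS, was -89 bp in a 500 bp window, -106.5 bp in a 2 kb window, -116.5 bp from the start codon by the start-region rule, and -96 to -88 bp with 1 replicate left out. Members sharing a region with another member numbered 37 within 1 kb of a TSS and 22 by the start-region rule. Distal regions numbered 18, against 31 in the pseudoreplicated and 32 in the replicated set of the series; with 1 replicate left out there were 21 to 22. No paired analysis was possible because the samples form 1 group. With 2 replicates and no counts, small differences between members are not resolved, and a missing region is not evidence of closed chromatin.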
